A study of Mus musculus with 6 samples.

Results

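The genes described are 10 of the tumour necrosis factor (TNF) superfamily in mouse peritoneal macrophages, 5 ligands (Tnf, Tnfsf9, Tnfsf12, Tnfsf13 and Tnfsf13b) and 5 receptors (Tnfrsf1a, Tnfrsf1b, Tnfrsf21, Cd40 and Fas). They were chosen by gene name, and each of the 10 names was carried by exactly 1 of the 34745 rows of the deposited expression table. The R-2-HG group held 3 libraries of C57BL/6 peritoneal macrophages given R-2-hydroxyglutarate at 0.1 mM for 24 h, and the vehicle group held 3 libraries of the same cells given vehicle for 24 h. R-2-hydroxyglutarate (R-2-HG) is the metabolite made by mutant isocitrate dehydrogenases. The labels do not say how the macrophages were obtained, how many mice were used or what the replicate numbers 1 to 3 mark, so the spread between libraries may be technical. Values are FPKM, fragments scaled by transcript length and by the mapped fragments of the library, so levels of different genes can be set side by side.

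TNF superfamily ligands are made as membrane proteins, many of which can be cut free, and act as trimers on receptors of the TNF receptor superfamily. Receptors with a cytoplasmic death domain, such as Tnfrsf1a, Fas and Tnfrsf21, can engage caspases, whereas receptors without one, such as Tnfrsf1b and Cd40, recruit TRAF adaptors and activate NF-kB. Macrophages are a main source of TNF and also respond to it, and the stability of Tnf RNA is set in part by AU-rich elements in its 3' untranslated region, to which the zinc finger protein Zfp36 binds.

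The element of Tnf is shown because it is a site through which Tnf RNA is controlled and because Tnf held the most matches of any member. In GENCODE M21 models (GRCm38) the nonamer TTATTTATT, searched on the transcript strand with overlaps counted, occurred 5 times in the 764 bases of the Tnf 3' untranslated region. It occurred 1 time in that of Tnfsf13b and was not found in those of the other 8 members. Among 9196 tested genes with such a region, of varying length with a median of 1339 bases, 7.89% held at least 1 match and 0.13% held at least as many as Tnf. The stretch of 30 bases below is at chr17:35199678-35199707 (GRCm38, minus strand, 3' untranslated region of Tnf), and capitals mark bases covered by a match, of which 4 lie wholly inside it.
Tnf: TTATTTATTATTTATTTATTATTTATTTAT

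Macrophage markers were high in all libraries, and the markers of other cell types varied between them. Depth, estimated from the steps between low values, was between about 13570000 and 16370000 fragments with R-2-HG and between about 15470000 and 16650000 fragments with vehicle. Csf1r, which marks macrophages, lay between 194.4 and 241.2 FPKM with R-2-HG and between 192.0 and 259.5 FPKM with vehicle. Gata6, which defines large peritoneal macrophages, lay between 0.641 and 2.37 FPKM with R-2-HG and between 1.19 and 3.07 FPKM with vehicle. The 6 fibroblast and mesothelial markers summed to 70.5, 11.2 and 3.81 FPKM with R-2-HG (libraries 1, 2 and 3) and to 81.7, 21.9 and 3.92 FPKM in vehicle libraries 1, 2 and 3. The libraries numbered 1 were thus the highest in both groups. The 6 B cell markers summed to between 23.0 and 29.3 FPKM with R-2-HG and between 25.6 and 50.3 FPKM with vehicle, and the 6 T cell markers to between 2.91 and 3.65 FPKM and between 2.52 and 5.83 FPKM in the same groups. Vehicle library 1 was the highest for both lists. Prf1 of NK cells, Fcer1a of mast cells and Epx of eosinophils were at 0 in all 6 libraries, but the rest of their lists was not. Above 0 in at least 1 library were 4 of 5 NK cell, 3 of 4 mast cell and 3 of 4 eosinophil markers. The eosinophil markers summed to between 3.02 and 4.22 FPKM with R-2-HG and between 3.72 and 4.19 FPKM with vehicle.

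The members spanned levels from a mean of 330.4 FPKM to below 1 FPKM. Over all 6 libraries the order of mean FPKM was Tnfrsf1b, Tnfsf12 (60.7), Tnfrsf21 (40.0), Tnfrsf1a (32.9), Tnfsf13 (13.6), Fas (3.54), Tnf (3.01), Tnfsf13b (1.5), Cd40 (0.708) and Tnfsf9 (0.556). Neighbours in this order whose ranges over the 6 libraries overlapped were Tnfsf12 with Tnfrsf21, Tnfrsf21 with Tnfrsf1a, Fas with Tnf, Tnfsf13b with Cd40, and Cd40 with Tnfsf9. The ranges of the other 4 neighbouring pairs did not overlap. Tnfrsf1b led the receptors and Tnfsf12 the ligands.

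**Figure D1:**
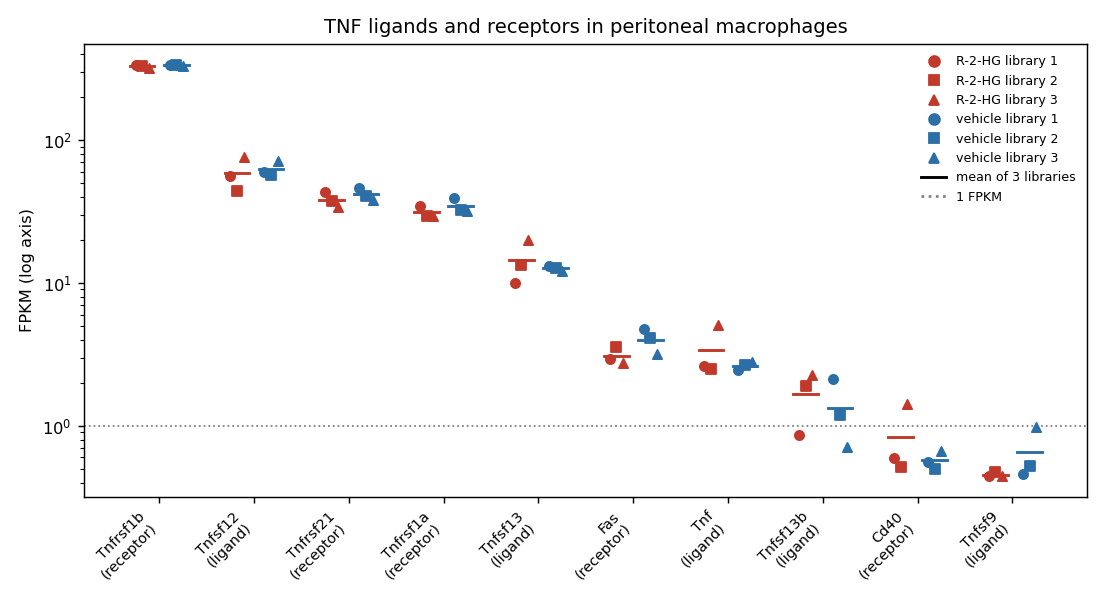
FPKM of each member in the 6 libraries on a log axis, R-2-HG in red left of vehicle in blue, with symbols for the replicate number and a bar at the mean of 3 libraries. Tnfrsf1b stands alone at the top, at 319.6 to 337.2 FPKM, and Cd40 and Tnfsf9 average below the dotted line at 1 FPKM.

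No member passed the test for a change with R-2-HG. The 9701 genes averaging 1 FPKM or more over the 6 libraries were tested with limma on log2(FPKM + 1), two-sided, with Benjamini-Hochberg adjustment over all of them and a threshold of 0.05. Of the 10 members 8 were tested, and Cd40 and Tnfsf9 lay below the filter. Of the 8, 0 were called and 0 had an unadjusted p under 0.05 (adjusted p = 0.99998 for each, limma). Over all genes tested the share called was 0%, and 1.44% had an unadjusted p under 0.05. For 0 of the 10 members did the R-2-HG and vehicle libraries separate without overlap, against 4.69% of all genes tested. An exact permutation test of 3 against 3 libraries cannot go below 0.1, so none is given for single genes. The median log2 change of the 8 members was -0.07, beside -0.004 over all genes tested. In bulk RNA fewer cells of a type and less RNA per cell cannot be told apart.

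**Figure D2:**
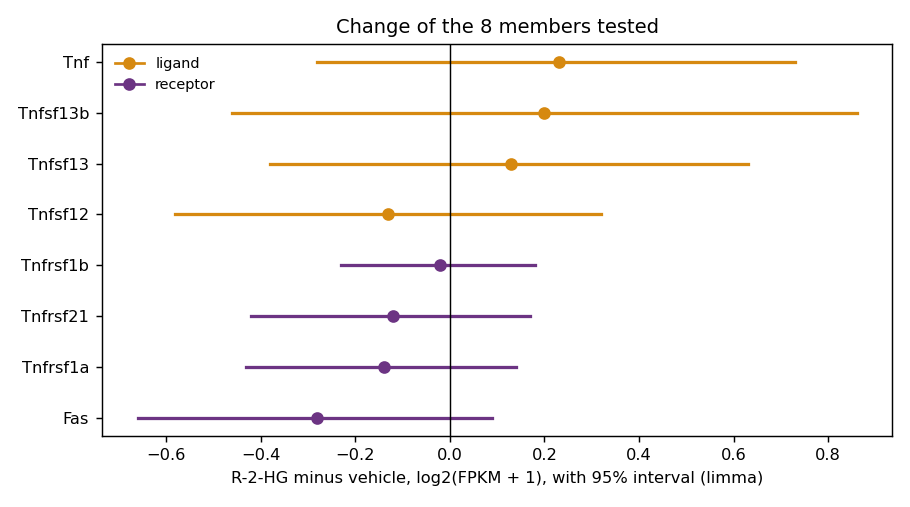
Change of the 8 tested members, R-2-HG minus vehicle on log2(FPKM + 1), as points with 95% intervals from limma, ligands in orange and receptors in purple. All 8 intervals span 0, and the narrowest is that of Tnfrsf1b, from -0.23 to 0.18.

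Tnf (ENSMUSG00000024401, chromosome 17, 35199381 to 35202007, minus strand, GRCm38) encodes TNF itself, the founding cytokine of the family. It stood at 2.61, 2.50 and 5.07 FPKM with R-2-HG (libraries 1, 2 and 3), against 2.45, 2.65 and 2.81 FPKM in vehicle libraries 1, 2 and 3. R-2-HG library 3 was above the other 5 libraries, which lay close together. With GENCODE's longest transcript these values correspond to about 70, 56 and 122 fragments with R-2-HG and 64, 67 and 77 with vehicle. The change was 0.23 (SE 0.22, 95% interval -0.28 to 0.73) on log2(FPKM + 1). It was -0.03 without R-2-HG library 3.

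Tnfsf12 encodes TWEAK, the ligand of the receptor Tnfrsf12a. It stood at 55.9, 43.8 and 75.9 FPKM with R-2-HG and at 59.8, 57.3 and 71.3 FPKM with vehicle. R-2-HG libraries held both the lowest and the highest value. The change was -0.13 (SE 0.20, 95% interval -0.58 to 0.32), and it was 0.06 without R-2-HG library 2. In a fit blocked on replicate number it was -0.24 without both libraries numbered 3 (unadjusted p = 0.0361, limma), and Tnfsf12 was not called there. Its receptor Tnfrsf12a averaged 15.5 ± 3.53 FPKM with R-2-HG and 13.1 ± 3.66 FPKM with vehicle (SD, n = 3 each), a change of 0.24 (SE 0.22).

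Tnfsf13 encodes APRIL, a ligand that supports plasma cells through Tnfrsf13b and Tnfrsf17. It stood at 9.97, 13.4 and 20.1 FPKM with R-2-HG and at 13.2, 12.8 and 12.1 FPKM with vehicle. The vehicle libraries lay within a narrow span, while the R-2-HG libraries lay below, just above and well above it. The change was 0.13 (SE 0.22, 95% interval -0.38 to 0.63) and -0.12 without R-2-HG library 3.

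Values of Tnfsf12 and Tnfsf13 are uncertain because of another gene model. Tnfsf12 (chromosome 11, 69686250 to 69695849, GRCm38, minus strand) and Tnfsf13 (69682846 to 69685784) are spanned on the same strand by Tnfsfm13 (69682577 to 69696098), whose transcripts join exons of both. In GENCODE M21, Tnfsfm13 shares 983 exon bases, or 60.0% of those of Tnfsf13, and 731 exon bases, or 48.3% of those of Tnfsf12. The antisense model Tnfsf13os also overlaps 13.5% of Tnfsf13 exon bases, and the sources used here do not give the strand handling. Tnfsfm13 stood at 24.8, 30.7 and 19.1 FPKM with R-2-HG and at 25.4, 27.8 and 29.3 FPKM with vehicle. It was lowest in R-2-HG library 3, where Tnfsf13 was highest. The sum of Tnfsf13 and Tnfsfm13 was 34.7, 44.2 and 39.2 FPKM with R-2-HG and 38.6, 40.6 and 41.5 FPKM with vehicle. In that sum R-2-HG library 3 lay between the other libraries. The part of the assignment of shared fragments in the Tnfsf13 values was not tested.

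**Figure D3:**
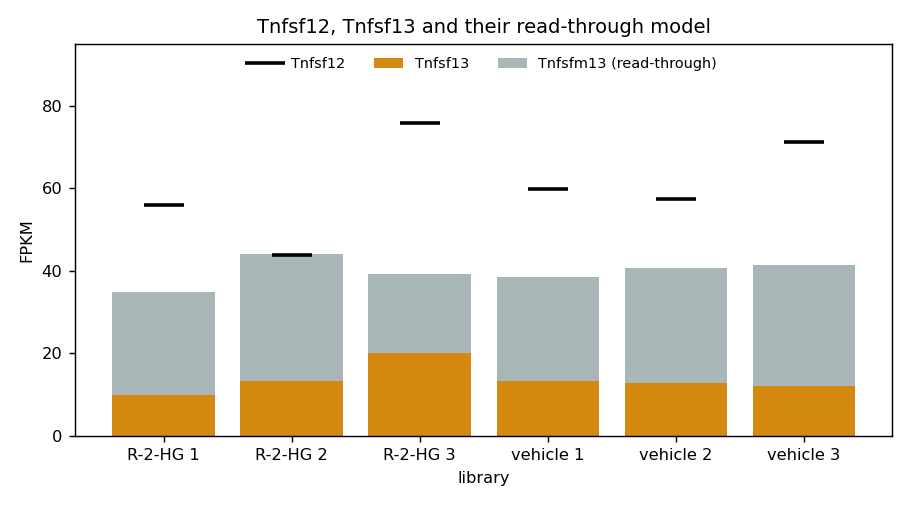
FPKM of Tnfsf13 (orange) stacked with Tnfsfm13 (grey) in each library, with Tnfsf12 as a black mark, R-2-HG libraries left of vehicle libraries. In R-2-HG library 3 Tnfsf13 takes 20.1 of the summed 39.2 FPKM, the largest part of any library.

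Tnfsf13b (ENSMUSG00000031497, chromosome 8, 10006467 to 10039072, plus strand, GRCm38) encodes BAFF, a survival factor for B cells. It stood at 0.855, 1.89 and 2.28 FPKM with R-2-HG and at 2.11, 1.18 and 0.712 FPKM with vehicle. The groups covered nearly the same span, and both had values below 1 and above 2 FPKM. The change was 0.20 (SE 0.28, 95% interval -0.46 to 0.86), and it moved in both directions as libraries were left out. It was 0.44 without R-2-HG library 1 and -0.003 without vehicle library 3. In a fit blocked on replicate number it was 0.67 when both libraries numbered 1 were left out (unadjusted p = 0.0243, limma) and -0.17 when both libraries numbered 3 were. It was not called in either. Of the receptors shared by Tnfsf13 and Tnfsf13b, Tnfrsf13b (TACI) varied between 1.35 and 5.58 FPKM with R-2-HG and between 1.04 and 6.08 FPKM with vehicle. Tnfrsf17 (BCMA), shared by both ligands, and Tnfrsf13c, the BAFF receptor of B cells, reached at most 0.148 and 0.228 FPKM in any library.

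Tnfsf9 (ENSMUSG00000035678, chromosome 17, 57105325 to 57107757, plus strand, GRCm38) encodes the ligand of 4-1BB, a costimulatory receptor of T cells. It stood at 0.448, 0.475 and 0.444 FPKM with R-2-HG and at 0.463, 0.525 and 0.979 FPKM with vehicle. Vehicle library 3 was the high one, at about 21 fragments, against about 8 to 10 fragments in each of the other 5 libraries. The untested difference in mean log2(FPKM + 1) was -0.17 with all libraries and -0.04 without vehicle library 3. The lincRNA model Gm11110 overlaps 14.9% of Tnfsf9 exon bases on the opposite strand. Its receptor Tnfrsf9 reached at most 0.196 FPKM.

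Tnfrsf1b (ENSMUSG00000028599, chromosome 4, 145213463 to 145246870, minus strand, GRCm38) encodes TNFR2, which binds membrane TNF and lacks a death domain. It stood at 333.0, 330.2 and 319.6 FPKM with R-2-HG and at 334.5, 337.2 and 328.1 FPKM with vehicle. The highest library was only 1.06 times the lowest, the smallest spread of any member. The change was -0.02 (SE 0.09, 95% interval -0.23 to 0.18). Tnfrsf1b alone made up between 80.4% and 82.5% of the summed FPKM of the 5 receptors with R-2-HG and between 78.6% and 81.7% with vehicle.

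Tnfrsf1a (ENSMUSG00000030341, chromosome 6, 125349362 to 125362484, plus strand, GRCm38) encodes TNFR1, the death domain receptor for soluble TNF. It stood at 34.6, 29.6 and 29.2 FPKM with R-2-HG and at 39.2, 32.6 and 31.9 FPKM with vehicle. In both groups the library numbered 1 was the highest. The change was -0.14 (SE 0.12, 95% interval -0.43 to 0.14), -0.05 without vehicle library 1 and -0.22 without R-2-HG library 1. The ratio of Tnfrsf1b to Tnfrsf1a was 9.62, 11.1 and 10.9 with R-2-HG and 8.53, 10.4 and 10.3 with vehicle, and the groups overlapped.

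Tnfrsf21 (ENSMUSG00000023915, chromosome 17, 43016555 to 43089189, plus strand, GRCm38) encodes death receptor 6. It stood at 43.2, 37.2 and 34.2 FPKM with R-2-HG and at 46.5, 40.8 and 37.8 FPKM with vehicle. As for Tnfrsf1a, the libraries numbered 1 were the highest of each group. The change was -0.12 (SE 0.13, 95% interval -0.42 to 0.17), -0.04 without vehicle library 1, -0.05 without R-2-HG library 3 and -0.21 without R-2-HG library 1.

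Fas (ENSMUSG00000024778, chromosome 19, 34290666 to 34327772, plus strand, GRCm38) encodes the receptor of Fas ligand. It stood at 2.92, 3.57 and 2.77 FPKM with R-2-HG and at 4.74, 4.08 and 3.18 FPKM with vehicle. Only R-2-HG library 2 reached into the vehicle range, above vehicle library 3. The change was -0.28 (SE 0.16, 95% interval -0.66 to 0.09), with an unadjusted p of 0.116, the smallest of the 8 members in the main fit (adjusted p = 0.99998, limma). It was -0.41 without vehicle library 3 (unadjusted p = 0.0415, limma). In the fit blocked on replicate number it was -0.35 without both libraries numbered 3 (unadjusted p = 0.0478, limma). Fas was not called in either. Fas ligand, Fasl, was listed at 0 in 5 of 6 libraries and at 0.0522 FPKM in R-2-HG library 1. Vehicle library 1, the highest for Fas, Tnfrsf1a and Tnfrsf21, was also the highest for the summed markers of large peritoneal macrophages, B cells, T cells, NK cells, neutrophils, and fibroblasts and mesothelium, at 4.76, 50.3, 5.83, 1.08, 54.7 and 81.7 FPKM. The part of those cells in the receptor values was not tested.

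Cd40 (ENSMUSG00000017652, chromosome 2, 165055627 to 165072948, plus strand, GRCm38) encodes the costimulatory receptor through which T cells license macrophages and other antigen-presenting cells. It stood at 0.597, 0.515 and 1.41 FPKM with R-2-HG and at 0.561, 0.502 and 0.664 FPKM with vehicle. R-2-HG library 3 was the high one, at about 62 fragments by the longest transcript, against about 33 fragments in vehicle library 3. The untested difference in mean log2(FPKM + 1) was 0.19 with all libraries and -0.02 without R-2-HG library 3. Its ligand Cd40lg was at 0 in all 6 libraries.

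Ligands and receptors were summed library by library, each sum being mostly 1 gene. The FPKM of the 5 ligands summed to 69.8, 62.1 and 103.8 with R-2-HG and to 78.1, 74.5 and 87.9 with vehicle, of which Tnfsf12 was between 70.5% and 80.1% with R-2-HG and between 76.6% and 81.1% with vehicle. The FPKM of the 5 receptors summed to 414.4, 401.1 and 387.1 with R-2-HG and to 425.5, 415.2 and 401.7 with vehicle. Libraries numbered 3 had the highest ligand sum and the lowest receptor sum of their group. The receptor sum was 5.94, 6.46 and 3.73 times the ligand sum with R-2-HG and 5.45, 5.57 and 4.57 times with vehicle. By medians of log2(FPKM + 1), ligands minus receptors came to -3.30, -3.13 and -2.32 with R-2-HG and to -3.54, -3.20 and -3.11 with vehicle. In every library the median ligand was Tnf and the median receptor was Tnfrsf1a, so this difference compares those genes alone. The mean of that quantity was 0.37 higher with R-2-HG, and 0.07 higher without R-2-HG library 3. It was higher with R-2-HG in 3 of 3 pairs of equal replicate number. On FPKM as deposited, the receptor sum, mostly Tnfrsf1b, whose direction in pairs changed with scaling, was lower with R-2-HG in 3 of 3 pairs, and the ligand sum was lower in 2 of 3.

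TNF and its own receptors were also set against each other, and the comparison of Tnf with Tnfrsf1a repeats that of the medians as ratios. Tnfrsf1b stood at 127.6, 132.3 and 63.1 times the level of Tnf with R-2-HG and at 136.4, 127.4 and 116.9 times with vehicle. Tnfrsf1a stood at 13.3, 11.9 and 5.76 times the level of Tnf with R-2-HG and at 16.0, 12.3 and 11.4 times with vehicle. R-2-HG library 3 was the lowest for both ratios, and the other 5 libraries were at 116.9 or more and at 11.4 or more. R-2-HG library 3 held the highest of the 6 values for 5 members (Tnf, Tnfsf12, Tnfsf13, Tnfsf13b and Cd40) and the lowest for the other 5 (Tnfsf9, Tnfrsf1a, Tnfrsf1b, Tnfrsf21 and Fas). The split did not follow the kind of gene throughout, since the receptor Cd40 was among the highest and the ligand Tnfsf9 among the lowest. Both lay below the filter, and Tnfsf9 was at 0.444 FPKM there, beside 0.448 FPKM in R-2-HG library 1. Among the 8 tested members the 4 ligands were highest and the 4 receptors lowest in R-2-HG library 3. Of all genes tested 24.6% were highest and 25.1% were lowest in that library. Of the 10 marker lists 0 had their highest sum there and 5 their lowest, those of macrophages (18799.4 FPKM), large peritoneal macrophages (2.1 FPKM), dendritic cells (0.69 FPKM), mast cells (0.00527 FPKM), and fibroblasts and mesothelium (3.81 FPKM). The macrophage sum was mostly Lyz2 (16924.3 FPKM there), whereas the macrophage marker Cd68 was highest in that library, at 1407.4 FPKM. The dendritic cell sum there was Cd209a alone, at 0.69 FPKM, close to its highest value of 0.696 FPKM in vehicle library 2. Timd4 of the large peritoneal macrophage markers was lowest in vehicle library 1, at 0.204 FPKM, against 0.44 FPKM in R-2-HG library 3. The mast cell sum in R-2-HG library 3 was below the 0.034 FPKM that 1 fragment equals at 2 kb. The part of these cell types in the member values was not tested.

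The libraries of equal number were also compared with each other, since their deviations from the group means went together. In all 3 such pairs 4 of the 5 receptors, Tnfrsf1a, Tnfrsf1b, Tnfrsf21 and Fas, had the lower value with R-2-HG, as did the ligand Tnfsf9, and Cd40 had the higher. Tnfsf9 and Cd40 lay below the filter, so shares of all genes tested do not cover them. Both differed little in pairs 1 and 2. Tnfsf9 was at 0.448 and 0.475 FPKM with R-2-HG and at 0.463 and 0.525 FPKM with vehicle. Cd40 was at 0.597 and 0.515 FPKM with R-2-HG and at 0.561 and 0.502 FPKM with vehicle. Under quantile normalization Tnfrsf1b was lower in 1 of 3 pairs and under median-ratio scaling in 2 of 3, whereas Tnfrsf1a, Tnfrsf21 and Fas kept 3 of 3 under both. The share of all genes tested that had the lower R-2-HG value in every pair was 11.8%, and the share that was higher was 11.7%. The R-2-HG value of Tnfrsf21 was 0.929, 0.913 and 0.904 times the vehicle value in pairs 1, 2 and 3, that of Tnfrsf1a 0.883, 0.910 and 0.914 times and that of Fas 0.616, 0.874 and 0.872 times. Tnfrsf1a and Tnfrsf21 thus differed by similar ratios in each pair. Of the 10 marker lists 2 also summed lower with R-2-HG in all 3 pairs. The large peritoneal macrophage markers summed to 4.25, 3.7 and 2.1 FPKM with R-2-HG and to 4.76, 4.1 and 3.28 FPKM with vehicle. Of these, Gata6 and Icam2 were lower in each pair, but Timd4 was higher with R-2-HG in pair 1, at 0.704 against 0.204 FPKM. The fibroblast and mesothelial sums given above were the other list, nearly equal in pair 3 at 3.81 and 3.92 FPKM. The macrophage marker Adgre1, picked after its values were seen, stood at 182.8, 148.9 and 124.7 FPKM with R-2-HG and at 192.3, 171.9 and 137.2 FPKM with vehicle, also lower in each pair. No other macrophage marker of the list was lower in every pair. Mertk was higher in each, at 49.0, 56.9 and 42.4 FPKM with R-2-HG and at 46.3, 50.1 and 41.1 FPKM with vehicle. The part of these markers in the receptor values was not tested. In the fit blocked on replicate number, 0 members were called (adjusted p = 0.991 for each, limma), and the smallest unadjusted p were 0.0748 for Tnfrsf1a and 0.0799 for Fas.

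**Figure D4:**
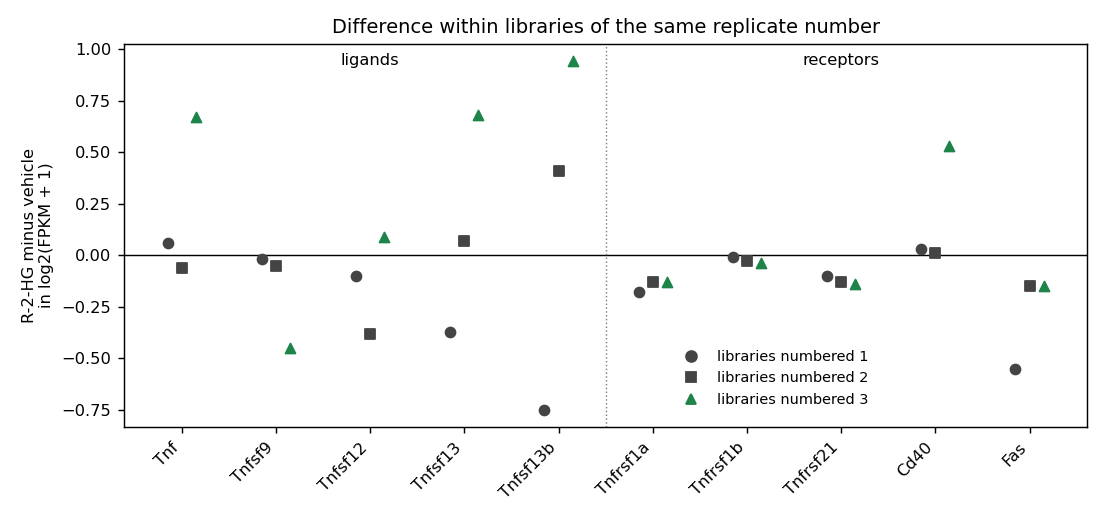
Difference in log2(FPKM + 1), R-2-HG minus vehicle, between the 2 libraries of each replicate number, with ligands left and receptors right of the dotted line and the libraries numbered 3 in green. Tnfrsf1a, Tnfrsf1b, Tnfrsf21 and Fas lie below 0 in all 3 pairs, and the pair numbered 3 stands out at 0.67 for Tnf, 0.68 for Tnfsf13, 0.94 for Tnfsf13b and 0.53 for Cd40.

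Among other genes of the family, none of the ligands and 8 of the receptors passed the filter. The 13 other ligands stayed at or below 0.519 FPKM in every library, the highest being Tnfsf4 in R-2-HG library 3, and lymphotoxin alpha (Lta), which shares its receptors with TNF, was listed at 0 in 5 of 6. Of the 23 other receptors 0 were called, with 5 lower and 3 higher means and a median log2 change of -0.02. Tnfrsf11a, the receptor RANK, averaged 5.30 ± 0.594 FPKM with R-2-HG and 6.16 ± 0.296 FPKM with vehicle (SD, n = 3 each), and Tnfrsf14 (HVEM) 5.19 ± 2.74 FPKM with R-2-HG and 6.44 ± 1.46 FPKM with vehicle. Ltbr, the lymphotoxin beta receptor, was the most abundant of them and was picked after its values were seen, at 28.0 ± 1.67 FPKM with R-2-HG and 26.2 ± 1.46 FPKM with vehicle.

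The signalling genes below the receptors were not called either. Of 28 adaptors, ubiquitin enzymes and kinases 27 were tested, with means lower for 14 and higher for 13 (median log2 change -0.01). Tradd, the adaptor of TNFR1, stood at 6.25, 4.97 and 8.5 FPKM with R-2-HG and at 4.14, 4.68 and 5.59 FPKM with vehicle, higher in all 3 pairs of equal number (change 0.37, SE 0.19). The groups overlapped, since R-2-HG library 2 lay below vehicle library 3. The deubiquitinases Cyld and Otulin, which trim ubiquitin chains in the TNF receptor complex, averaged 6.03 ± 0.846 and 28.5 ± 1.52 FPKM with R-2-HG and 7.07 ± 0.466 and 31.9 ± 2.35 FPKM with vehicle (SD, n = 3 each). All 8 genes of the death arm were tested and split evenly into 4 lower and 4 higher (median 0.01), with the initiator caspase Casp8 at 20.5 ± 2.75 FPKM with R-2-HG and 19.7 ± 1.08 FPKM with vehicle. The necroptosis kinase Ripk3 averaged 7.85 ± 2.05 FPKM with R-2-HG and 9.13 ± 3.93 FPKM with vehicle.

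Genes that release TNF, control its RNA or respond to NF-kB were not called. Of 9 shedding and processing genes 8 were tested, 4 lower and 4 higher (median 0.01). Adam17, the protease that frees TNF from the membrane, stood at 36.2, 38.0 and 33.6 FPKM with R-2-HG and at 35.9, 36.8 and 22.2 FPKM with vehicle, and vehicle library 3 was the low one (change 0.21, SE 0.19). Frmd8, which stabilises the Adam17 complex, averaged 7.80 ± 1.24 FPKM with R-2-HG and 8.71 ± 0.520 FPKM with vehicle, and the intramembrane protease Sppl2b 7.01 ± 0.786 FPKM with R-2-HG and 6.62 ± 0.695 FPKM with vehicle. Of 12 regulators of Tnf RNA 11 were tested, 4 lower and 7 higher (median 0.06). Zfp36, which binds the element printed above and was named for that after its values were seen, stood at 62.6, 65.3 and 64.5 FPKM with R-2-HG and at 65.4, 63.1 and 62.1 FPKM with vehicle, a nearly even level. The RNA-binding proteins Hnrnpd, Khsrp and Rc3h1 averaged 7.60 ± 1.24, 25.5 ± 3.79 and 9.69 ± 1.5 FPKM with R-2-HG and 6.45 ± 1.16, 23.0 ± 1.67 and 8.64 ± 1.14 FPKM with vehicle. Of 20 NF-kB target genes 17 were tested, 8 lower and 9 higher (median 0.04). Nfkbie, an inhibitor of NF-kB, stood at 3.26, 3.56 and 1.61 FPKM with R-2-HG and at 5.23, 4.32 and 3.06 FPKM with vehicle, lower in all 3 pairs (change -0.47, SE 0.25). Junb, a subunit of AP-1, averaged 64.1 ± 6.77 FPKM with R-2-HG and 56.7 ± 0.706 FPKM with vehicle, and the chemokine gene Ccl3 24.8 ± 3.93 FPKM with R-2-HG and 21.6 ± 1.43 FPKM with vehicle. Of the 113 other pathway genes in all, 79 were tested, 0 were called and 0 had an unadjusted p under 0.05 (limma), with 39 lower and 40 higher means.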

How the data were processed

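RNA-seq expression of 6 libraries was analysed from 1 deposited table of FPKM values, 1 column per library, matched to samples by column name. The authors deposited FPKM, and the submitters' processing notes name Bowtie 0.12.2, Cuffdiff, mm8 and mm10, with no role or order. Strand handling was not given in the sources used here, nor was the annotation. For genes averaging 1 FPKM or more, R-2-HG minus vehicle was fitted to log2(FPKM + 1) by limma 3.58.1 (R 4.3.3; eBayes with trend and robust estimation). Fold changes on this scale understate low genes. The test was checked on simulated data. Depth was estimated from 7092 single-transcript genes, whose low values came within 0.1 of whole fragments in 95.4% to 96.5% of cases, and fragment numbers given are approximate. At 2 kb, 1 fragment equals 0.0300 to 0.0368 FPKM. Positions and exon overlaps come from GENCODE M21 (GRCm38), which need not be the authors' annotation. Deviations from group means of same-numbered libraries correlated at 0.54, 0.37 and 0.36 across genes, and those of libraries of unequal number at -0.47 to 0.05. Deviations within a group sum to 0, so these correlations are not independent of each other. The numbers were taken to pair the libraries, a pairing found in the data and not in the labels. The labels do not say whether replicates came from different mice or cultures, and the p-values reflect only how these libraries vary. Members and lists were chosen with earlier results of these data known. By rule the genes named are all 10 members, their ligand or receptor partners, Adam17, up to 3 tested genes of smallest p in each list, and markers whose list was highest in the same library as a member. Csf1r, Adgre1, Mertk, Cd68, Lyz2, Cd209a, Fcer1a, Epx, Tnfsf4, Ltbr, Zfp36 and the gene models overlapping members lie outside it. They were named after their values were seen. One gene that this rule names is not reported here. Python 3.11.15, pandas 2.3.3, numpy 2.4.6 and matplotlib 3.10.9 were used.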

Additional observations from a re-analysis of the deposited data

How the results depend on the processing

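Each of the 8 tested members was refitted under 16 alternatives: pseudocounts of 0.1 and 0.01, no filter on low values, quantile normalization, median-ratio scaling, eBayes without trend, each library left out, and the replicate number as a block with all libraries or without 1 number. In these fits 0 members were called (adjusted p between 0.849 and 1, limma), and 122 of 128 values kept their direction. The median change of all genes was at most 0.0143 in size in every fit. The reversals were Tnf at -0.03 and Tnfsf13 at -0.12 without R-2-HG library 3, Tnfsf12 at 0.06 without R-2-HG library 2, Tnfsf13b at -0.003 without vehicle library 3, and, with the replicate block and no libraries numbered 3, Tnfsf13 at -0.15 and Tnfsf13b at -0.17. The cause was not tested. Leaving out 1 library, the change ran from -0.03 to 0.37 for Tnf, -0.33 to 0.06 for Tnfsf12, -0.12 to 0.35 for Tnfsf13, -0.003 to 0.44 for Tnfsf13b, -0.22 to -0.05 for Tnfrsf1a, -0.04 to -0.01 for Tnfrsf1b, -0.21 to -0.04 for Tnfrsf21 and -0.41 to -0.18 for Fas. The values nearest 0 for Tnfrsf1a and Tnfrsf21 were those without vehicle library 1. Among all genes the count called was 0 with 6 libraries (140 at an unadjusted p under 0.05), 0 to 1 without 1 library (1 without R-2-HG library 1 and 1 without R-2-HG library 3), 0 with the replicate block (329 unadjusted), and 0 to 4 when both libraries of a number were also left out (1 without number 1 and 4 without number 3), none of them a member. The block changed no call of a member. Of the other pathway genes 0 were called in any of these fits. Ligands minus receptors (0.37) came to 0.13 with means, 0.43 with a pseudocount of 0.1, 0.31 over members of at least 1 FPKM, and 0.07 to 0.56 without 1 library. With pseudocounts of 0.1 and 0.01 the untested differences were -0.38 and -0.44 for Tnfsf9 and 0.36 and 0.40 for Cd40, and the change of Tnfsf13b was 0.32 and 0.35. Depth limits Cd40 and Tnfsf9, where between 8 and 62 fragments, by estimate, carry each value. It also bears on Tnf, Tnfsf13b and Fas, at about 56 to 122, 57 to 160 and 66 to 122 fragments by the longest transcript.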
